A study of Homo sapiens with 4 samples.

Results

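The genes described here encode receptors for mediators released in injured or stressed tissue: the bradykinin receptors BDKRB1 and BDKRB2, the nucleotide receptors P2RY1 and P2RY2, the adrenergic receptor ADRB1 and the protease-activated receptors F2R and F2RL1. They were chosen from the platform annotation as every probe set assigned to exactly 1 of these 7 symbols, and the genes were picked with their GFP-RhoGDI2 minus GFP differences on these arrays known. Of the 7 genes, 6 had such a probe set, 10 probe sets in all, out of 19775 genes named on the array. F2RL1 had none in the annotation used here, so it has no values below.

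The cells were UM-UC-3, a long-established line from a human bladder cancer, read on 4 Affymetrix HG-U133 Plus 2.0 arrays. In the GFP-RhoGDI2 group (2 arrays) the cells stably carried RhoGDI2, the product of ARHGDIB, fused to green fluorescent protein (GFP); in the GFP group (2 arrays) they carried GFP alone. Both lines were sorted for fluorescence and harvested in log phase growth, the GFP control was co-transfected with pBABE PURO for selection, and per the labels the 2 preparations, A and B, were made at different times with a culture of each line in each. The series asked which genes RhoGDI2, named there as a metastasis suppressor, regulates. For the GFP-RhoGDI2 samples, 1 label field describes the control instead, and the groups here follow the titles, which the source and genotype labels match. The labels name no separate transfections for A and B, so differences that arose when the cells were made and those due to RhoGDI2 cannot be told apart. The arrays had medians of 4.62 to 4.65 on the log2 scale.

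All of these receptors belong to the seven-helix family that signals through G proteins. Bradykinin, released from kininogen by kallikreins, acts on BDKRB2, which most tissues carry constantly, while BDKRB1 answers to kinins that have lost their last arginine and is known as the form induced by cytokines and tissue injury. P2RY1 binds ADP and P2RY2 binds ATP and UTP, and both act through Gq, phospholipase C and calcium release, as the bradykinin receptors do. ADRB1 binds noradrenaline and adrenaline and raises cyclic AMP through Gs. F2R, the thrombin receptor, and F2RL1, the receptor for trypsin-like proteases, are switched on when a protease cuts their outer end and the new end acts as the ligand, and F2R also couples to G12 and G13, which act on small GTPases that control the cytoskeleton. RhoGDI2 is itself a regulator that holds such small GTPases in their inactive, soluble form.

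The promoter windows of 4 of these genes are printed for the contrast they form: BDKRB1 and BDKRB2 lie next to each other on chromosome 14, but the first differed widely between the lines and the other little, and P2RY1 and ADRB1 lay furthest below the GFP arrays. The windows run from 250 bases before to 50 bases after the start, on the plus strand, 5′ to 3′, from RefSeq on GRCh38.p14, and 5 of the 7 genes had an entry. Capitals mark the letters searched on both strands, which were chosen with the sequences in view. These were TGACNTCA, a loosened form of the cyclic AMP response element with any base at N, and TATANAA for a TATA box. The others were GGGCGG for a GC box, TGANTCA for the factor AP-1, and the NF-kappaB motif.
BDKRB1, chr14:96255960-96256259: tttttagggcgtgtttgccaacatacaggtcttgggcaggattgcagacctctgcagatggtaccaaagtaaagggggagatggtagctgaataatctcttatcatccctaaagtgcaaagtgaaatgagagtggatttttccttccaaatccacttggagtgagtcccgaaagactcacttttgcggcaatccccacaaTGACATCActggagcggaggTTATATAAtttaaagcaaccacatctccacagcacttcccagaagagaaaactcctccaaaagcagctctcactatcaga
BDKRB2, chr14:96204589-96204888: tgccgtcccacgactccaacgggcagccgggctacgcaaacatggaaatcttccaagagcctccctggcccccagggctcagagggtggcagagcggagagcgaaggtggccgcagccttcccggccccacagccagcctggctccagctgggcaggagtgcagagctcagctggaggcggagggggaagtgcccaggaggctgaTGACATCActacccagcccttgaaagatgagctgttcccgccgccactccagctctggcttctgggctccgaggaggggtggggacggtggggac
P2RY1, chr3:152834881-152835180: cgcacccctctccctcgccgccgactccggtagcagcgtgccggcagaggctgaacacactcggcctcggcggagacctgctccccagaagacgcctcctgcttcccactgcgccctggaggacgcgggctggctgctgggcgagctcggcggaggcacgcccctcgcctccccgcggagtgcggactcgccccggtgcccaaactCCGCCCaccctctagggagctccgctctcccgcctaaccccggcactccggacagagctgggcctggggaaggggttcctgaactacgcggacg
ADRB1, chr10:114043616-114043915: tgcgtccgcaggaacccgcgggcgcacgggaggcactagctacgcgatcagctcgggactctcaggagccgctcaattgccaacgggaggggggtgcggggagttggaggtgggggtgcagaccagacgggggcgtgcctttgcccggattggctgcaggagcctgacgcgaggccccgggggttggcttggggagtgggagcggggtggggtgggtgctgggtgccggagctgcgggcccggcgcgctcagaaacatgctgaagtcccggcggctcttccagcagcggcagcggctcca

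The BDKRB1 window held 1 match to TGACNTCA, starting at position -50 from the start, and overlapping matches to TATANAA at -30 on the minus strand and -29 on the plus strand. The BDKRB2 window also held 1 match to TGACNTCA, at -45, and none to TATANAA. In each of these windows the match to TGACNTCA read TGACATCA, with A at the open position. The same 11 bases, atgacatcact, were the longest run shared by the 2 windows, and 9 of 35097 promoter windows of that length held it. That run was picked from these 2 windows, which are among the 9, so its low count is not a test. The longest run shared by the P2RY1 and ADRB1 windows had 8 bases and was held by 267 windows (0.761%). TGACNTCA was found in 7.72% of all windows and TATANAA in 9.11%. The P2RY1 window had 1 match to GGGCGG, on the minus strand, at -44, as did 44.9% of all windows at some position, and the ADRB1 window had no match to any motif searched. AP-1 and NF-kappaB letters, present in 7.71% and 11.3% of windows, were in none of the 4. The windows differed in base composition: the GC content was 45% with 4 CpG dinucleotides for BDKRB1, 67.0% with 14 for BDKRB2, 72.7% with 32 for P2RY1 and 71.3% with 28 for ADRB1, against a median of 58.7% and 14 over all windows. These matches describe the letters in the windows and were not related to the array values by any test.

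The values that follow are log2 expression values per probe set, and differences are GFP-RhoGDI2 minus GFP within each preparation. Because the genes were picked with this contrast known, their differences are a description and carry no p-value. Probe sets with a mean over the 4 arrays at or above 4.64, the median over all probe sets (the filter level), entered the tests of other genes. Of the 10 receptor probe sets, 6 passed that filter, which covers 5 genes, and 4 did not. Detection calls were not available, so a low reading does not show that a transcript was absent, and levels of different probe sets cannot be set against each other. In these cultures, a change in the share of cells that express a gene and a change in RNA per cell cannot be told apart.

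BDKRB1, the injury-induced kinin receptor, was much higher in the GFP-RhoGDI2 line. Its single probe set read 9.51 and 9.59 on the GFP-RhoGDI2 arrays A and B, against 7.03 and 7.08 on the GFP arrays. Each GFP-RhoGDI2 array lay far above each GFP array, and the arrays of a group were close together. The difference was 2.47 in preparation A and 2.51 in preparation B, a mean of 2.49 or 5.62-fold. The group means were 9.55 ± 0.06 for GFP-RhoGDI2 and 7.06 ± 0.04 for GFP (SD, n = 2 each).

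BDKRB2, the constant kinin receptor, sat near the filter level in both lines. It read 4.56 and 4.62 in GFP-RhoGDI2 cells, against 4.78 and 4.73 in GFP cells. The GFP-RhoGDI2 values lay below that level and the GFP values above it, so BDKRB2 passed the filter through the GFP arrays alone. The groups did not overlap, but the mean difference was small, -0.16, with -0.22 in preparation A and -0.11 in preparation B. In the RefSeq gene order, no protein-coding gene lies between BDKRB2 and BDKRB1. ATG2B, the gene on the other side of BDKRB1 and a factor of autophagy, differed by -0.24 (limma, adjusted p = 0.175). C14orf132, the next gene beyond BDKRB2, was higher in the GFP-RhoGDI2 line by 0.54 (limma, adjusted p = 0.0351). The C14orf132 call was not checked with arrays left out or under the other settings. These neighbours were chosen for their place, after the BDKRB1 values had been seen.

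P2RY1, the ADP receptor, was lower in the GFP-RhoGDI2 line at 1 of its 2 probe sets. Probe set 231925_at read 4.89 and 5.15 on the GFP-RhoGDI2 arrays, against 6.28 and 6.30 on the GFP arrays. Both GFP-RhoGDI2 values lay below both GFP values. The difference was -1.39 in preparation A and -1.15 in preparation B, a mean of -1.27, or 2.41-fold lower. Probe set 207455_at was below the filter level throughout, at 4.19 and 4.11 in GFP-RhoGDI2 cells, against 4.53 and 4.29 in GFP cells. It pointed the same way with a smaller mean difference of -0.26, and its groups did not overlap. With the 2 probe sets averaged, the P2RY1 difference was -0.76. P2RY2, the ATP and UTP receptor, had 1 probe set, also below the filter level, with 4.16 and 4.31 in GFP-RhoGDI2 cells, against 4.16 and 4.43 in GFP cells. Its groups overlapped, and the mean difference was -0.06.

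ADRB1, the beta-1 adrenergic receptor, was lower in the GFP-RhoGDI2 line at 1 of its 3 probe sets. Probe set 229309_at read 4.23 and 3.90 on the GFP-RhoGDI2 arrays, against 5.42 and 5.35 on the GFP arrays. The groups were well apart, with differences of -1.19 and -1.45 in preparations A and B and a mean of -1.32, or 2.49-fold lower. Its GFP-RhoGDI2 mean of 4.07 lies below the filter level, so this probe set passed the filter through the GFP arrays alone. When values below the filter level were raised to it, the difference was -0.75. The other ADRB1 probe sets stayed low and mixed. 229277_at read 3.42 and 3.74 in GFP-RhoGDI2 cells, against 3.56 and 3.49 in GFP cells, and 208214_at read 3.0 and 3.25 in GFP-RhoGDI2 cells, against 3.30 and 3.16 in GFP cells. In both, the groups overlapped and the sign turned between preparations, with mean differences of 0.05 and -0.10. Averaged over the 3 probe sets, the ADRB1 difference was -0.46.

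F2R, the thrombin receptor, was higher in the GFP-RhoGDI2 line at 1 of its 2 probe sets. Probe set 203989_x_at read 7.23 and 7.53 in GFP-RhoGDI2 cells, against 6.40 and 6.68 in GFP cells. The lowest GFP-RhoGDI2 array was above the highest GFP array, and preparation B was above preparation A in each line. The difference was 0.82 in preparation A and 0.85 in preparation B, a mean of 0.84 or 1.79-fold. The ending _x_at marks a probe set whose probes can match several transcripts. Probe set 1569642_at also passed the filter but read 5.40 and 5.46 in GFP-RhoGDI2 cells, against 5.43 and 5.33 in GFP cells, with overlapping groups and a mean difference of 0.05. The F2R difference depended on the probe set: it was 0.45 with the 2 averaged, and 0.05 without probe sets of the _s_at and _x_at classes. F2RL1 and F2RL2, another protease-activated receptor gene, flank F2R in the RefSeq gene order. F2RL2 was below the filter level on all 4 arrays, with a mean difference of -0.03.

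**Figure D1:**
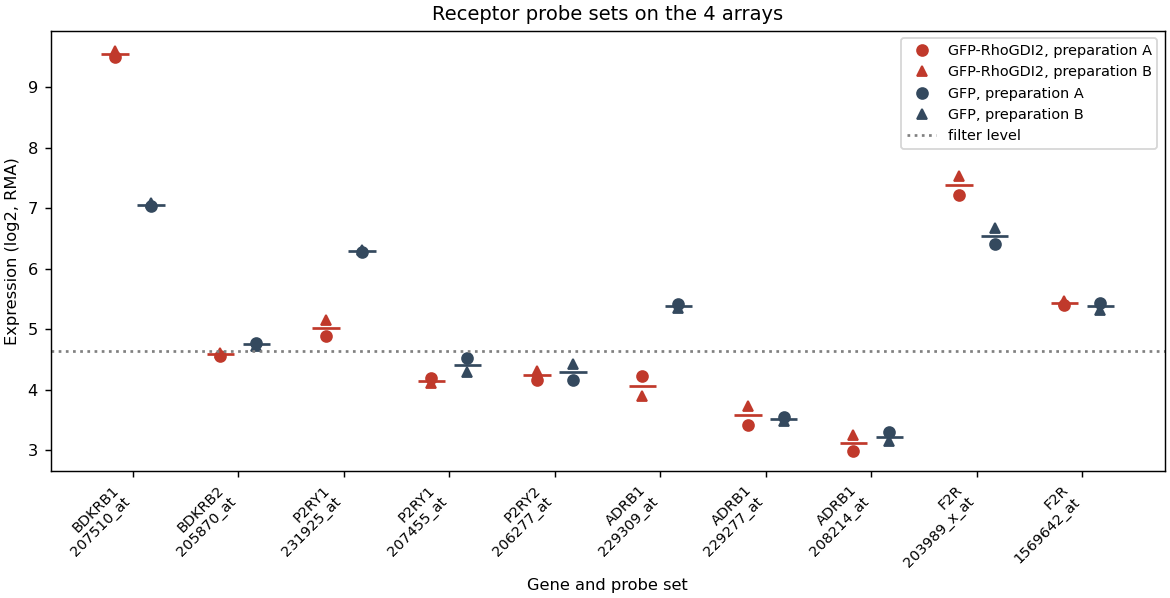
Log2 RMA expression (y axis) of the 10 receptor probe sets (x axis) on each array, with GFP-RhoGDI2 arrays in red on the left and GFP arrays in dark blue on the right of each pair, circles for preparation A, triangles for preparation B, bars for the means of 2 arrays and a dotted line for the filter level of 4.64. BDKRB1 (9.51 and 9.59 against 7.03 and 7.08) and F2R 203989_x_at were above, and P2RY1 231925_at and ADRB1 229309_at below, the GFP arrays by the widest gaps.

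Taking the probe set with the highest mean for each gene, 1 receptor gene (BDKRB1) was higher and 2 (P2RY1 and ADRB1) were lower by at least 1 on the log2 scale with the same sign in both preparations. Among all 12123 genes tested, 1.31% were higher and 0.355% lower by that rule, 1.67% in all. The groups of arrays did not overlap for all 5 receptor genes that passed the filter, as they did not for 54.5% of all genes tested (25.6% higher and 29.0% lower). The receptors were chosen with these differences known, and ADRB1 and BDKRB2 passed the filter only through the GFP arrays, so nothing is read from these counts. With 1 array left out in turn, the F2R difference of group means ran from 0.69 to 0.99. Those means were not paired, so the shift between preparations entered them. Within preparations A and B the F2R difference was 0.82 and 0.85.

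**Figure D2:**
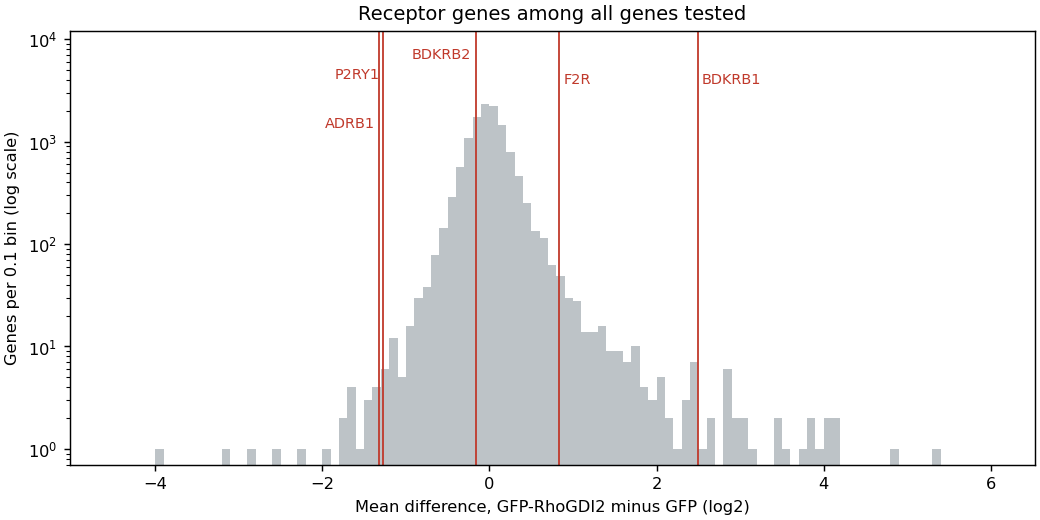
Number of genes (y axis, log scale) by mean GFP-RhoGDI2 minus GFP difference (x axis, log2, bins of 0.1) for the 12123 genes tested, with red lines at the 5 receptor genes that passed the filter. BDKRB1 at 2.49 lies in the upper tail, P2RY1 at -1.27 and ADRB1 at -1.32 in the lower tail, F2R at 0.84 on the upper flank and BDKRB2 at -0.16 near the centre.

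A measure that the choice of the genes did not use is the difference between preparations, B minus A, adjusted for the line. By limma, 0 of the 5 receptor genes that passed the filter differed between preparations at an adjusted p under 0.05, and 1, F2R, did at an unadjusted p under 0.05. Over all 12123 genes tested, 0% passed the adjusted threshold and 1217 genes the unadjusted one. F2R differed by 0.29 (SE 0.092, adjusted p = 0.400 by limma), with 0.30 in GFP-RhoGDI2 cells and 0.27 in GFP cells. The other 4 genes ranged from -0.20 for ADRB1 to 0.14 for P2RY1. For BDKRB1 the preparation difference was 0.07 (SE 0.092). These values hold the spread between preparations of the same cells, not that between independently made lines.

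The introduced gene and the cell type were checked on the same arrays. ARHGDIB probe set 1555812_a_at read 11.94 and 11.58 on the GFP-RhoGDI2 arrays, against 6.51 and 6.27 on the GFP arrays. Its other probe sets differed less, 201288_at by 0.94 (limma, adjusted p = 0.00794) and 1555811_at by -0.02 (adjusted p = 0.953), with the sign of the last turning between preparations. Of 12 urothelial and epithelial markers on the array, KRT18, KRT7 and GATA3 passed the filter. The 4 uroplakin genes, which define mature urothelium, and CDH1, EPCAM, KRT5, KRT19 and KRT20 had means below it and were not tested. Among these, UPK1A read 4.95 and 4.55 in GFP-RhoGDI2 cells, against 4.18 and 4.03 in GFP cells, a mean difference of 0.65, with no overlap of the groups. Summed over the list, the log2 values of these markers were 57.8 and 56.7 on the GFP-RhoGDI2 arrays, against 57.6 and 58.8 on the GFP arrays. Of the 12 markers summed, 9 were below the filter level, so the sum does not measure the amount of marker RNA. KRT18, a keratin of simple epithelia, was lower in the GFP-RhoGDI2 line, at 12.99 and 13.03, against 13.60 and 13.61 in GFP cells. The difference was -0.59 (limma, adjusted p = 0.0225), a call not checked with arrays left out. Of the 21 markers of endothelium, blood and immune cells, platelets and smooth muscle on the array, 9 passed the filter and 0 were past the threshold (limma), with 1, the smooth muscle gene MYH11 (0.26, adjusted p = 0.143), at an unadjusted p under 0.05. The part of these marker differences in the receptor values was not tested.

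Other genes of the same pathways were taken from 10 lists of 199 genes, none of them one of the 7 receptors. The lists were drawn up with earlier results of these arrays known, so nothing is read from the counts of calls in them. Of the 199, 185 had a single-gene probe set and 117 passed the filter. In the limma fit 13 of the 117 rose and 4 fell, 14.5% in all, beside 8.17% of all genes tested (4.83% higher and 3.35% lower), and the median difference was 0.04 against -0.01 over all genes tested. Of these 17 calls, 3 (GJA1, TFPI2 and FPR1) held with any 1 array left out, and 10 were lost with each of the 4 arrays left out in turn, in a fit that then had no preparation block.

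Among genes that form or break down kinins, 1 of 8 tested genes rose and 0 fell. MME, the membrane peptidase neprilysin that degrades bradykinin among other peptides, read 10.80 and 10.92 in GFP-RhoGDI2 cells, against 10.22 and 10.18 in GFP cells. It rose by 0.66 (SE 0.098, adjusted p = 0.0200, limma), a call lost with any 1 array left out (adjusted p of 0.0570 to 0.118, differences of 0.60 to 0.72). The MME probe set is of the _s_at class, and the gene was not tested without such probe sets. With probe sets averaged the MME difference was 0.66. XPNPEP1, an aminopeptidase that can cut bradykinin, differed by 0.27 (adjusted p = 0.141, limma), and CPD, a carboxypeptidase that removes terminal arginine, by -0.25 (adjusted p = 0.164). KNG1, the gene of the kinin precursor kininogen, was below the filter level, with a mean of 3.46.

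Of the other nucleotide and adenosine receptors, 1 of 8 tested genes rose and 0 fell. P2RY8, which carries the family name but is not known as a nucleotide receptor, read 9.13 and 9.47 in GFP-RhoGDI2 cells, against 8.23 and 8.42 in GFP cells, and rose by 0.97 (SE 0.097, adjusted p = 0.00666, limma). Without the GFP-RhoGDI2 B array it missed the threshold (difference 0.80, adjusted p = 0.0749). The ATP-gated channel genes P2RX5 and P2RX2 differed by -0.25 (adjusted p = 0.162) and 0.20 (adjusted p = 0.358). ADORA2B, the low-affinity adenosine receptor, differed by 0.05 (adjusted p = 0.772).

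Genes that release, break down or take up nucleotides rose in 2 of 11 cases and fell in 0. GJA1 encodes connexin 43, a channel protein through which cells can release ATP. It read 10.63 and 10.67 on the GFP-RhoGDI2 arrays, against 8.16 and 8.14 on the GFP arrays, and rose by 2.50 (SE 0.093, adjusted p = 2.62e-04, limma). ENPP1, an ectoenzyme that splits ATP into AMP and pyrophosphate, rose by 0.54 (SE 0.104, adjusted p = 0.0395), a call lost without the preparation block (adjusted p = 0.1003), with no filter (adjusted p = 0.0687) and with any 1 array left out (adjusted p of 0.0797 to 0.339, differences of 0.34 to 0.73). The ENPP1 probe set is of the _s_at class, and the gene was not tested with probe sets averaged or without such probe sets. ADA, which deaminates adenosine, differed by -0.34 (adjusted p = 0.108, limma), and NT5E, which makes adenosine from AMP, by 0.22 (adjusted p = 0.212).

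Of the other adrenergic receptors and catecholamine-handling genes, only 3 were tested and 0 were called by limma, with 1, ADRA2C, at an unadjusted p under 0.05. ADRA2C, an alpha-2 adrenergic receptor that lowers cyclic AMP, read 5.66 and 5.53 in GFP-RhoGDI2 cells, against 5.0 and 5.39 in GFP cells (difference 0.40, adjusted p = 0.148). SLC6A2, the noradrenaline transporter, differed by 0.12 (adjusted p = 0.454) and ADRA2B by 0.04 (adjusted p = 0.821).

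Among other protease-activated receptors, their proteases and inhibitors, 1 of 14 tested genes rose and 0 fell. TFPI2, a secreted inhibitor of trypsin, plasmin and related proteases, read 7.73 and 7.37 in GFP-RhoGDI2 cells, against 6.05 and 6.07 in GFP cells, and rose by 1.49 (SE 0.122, adjusted p = 0.00344, limma), or 2.81-fold. That probe set is of the _s_at class, and without such probe sets the TFPI2 difference was 0.94 (adjusted p = 0.00714). TMPRSS2, a membrane serine protease, differed by -0.27 (adjusted p = 0.140) and PROCR, the endothelial protein C receptor, by -0.26 (adjusted p = 0.146). F3, the tissue factor gene whose product starts the cascade that makes thrombin, differed by -0.04 (adjusted p = 0.833).

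Receptor kinases and arrestins, which silence active receptors, rose in 1 of 8 tested genes and fell in 0. GRK5, a kinase of that family, read 8.35 and 8.35 in GFP-RhoGDI2 cells, against 7.73 and 7.62 in GFP cells, and rose by 0.67 (SE 0.095, adjusted p = 0.0180, limma). That probe set is of the _s_at class, and without such probe sets another GRK5 probe set stood at -0.10 (adjusted p = 0.560). With probe sets averaged the GRK5 difference was 0.33 (adjusted p = 0.0156). The call also held only without the GFP A array among the 4 arrays left out in turn (adjusted p of 0.0400 to 0.0999). ARRDC3, an arrestin-domain protein that acts on beta-adrenergic receptors, differed by 0.43 (adjusted p = 0.0519), and GRK3 by -0.39 (adjusted p = 0.0614).

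Genes of Gq, phospholipase C and calcium signalling, the route of the kinin and P2Y receptors, rose in 2 of 18 tested cases and fell in 3. The shares over all genes tested were 4.83% higher and 3.35% lower. ITPR2, a receptor for inositol trisphosphate that releases stored calcium, read 7.41 and 7.67 in GFP-RhoGDI2 cells, against 8.45 and 8.55 in GFP cells. It fell by 0.96 (SE 0.097, adjusted p = 0.00684, limma), which narrowly missed the threshold without the GFP-RhoGDI2 A array (difference -0.83, adjusted p = 0.0510). STIM2, which senses calcium in the endoplasmic reticulum, fell by 0.58 (adjusted p = 0.0270), and ORAI1, the store-operated calcium channel that STIM proteins open, fell by 0.57 (adjusted p = 0.0248). PRKCA, a protein kinase C, rose by 0.58 (adjusted p = 0.0273) and ITPR1 by 0.44 (adjusted p = 0.0499). The calls of STIM2, ORAI1, PRKCA and ITPR1 were lost with any 1 array left out (differences of -0.65 to -0.51, -0.65 to -0.50, 0.42 to 0.74 and 0.37 to 0.51), and those of PRKCA and ITPR1 without the preparation block (adjusted p = 0.0663 and 0.0713). With probe sets averaged, PRKCA stood at 0.23 (adjusted p = 0.0764), and without _s_at and _x_at probe sets STIM2 stood at -0.39 (adjusted p = 0.0651). The ITPR1 call was also lost with no filter, an intensity trend, quantile normalization or no _s_at and _x_at probe sets (limma, adjusted p of 0.0501 to 0.1004). ITPR1 was not tested with probe sets averaged. The G protein genes GNAQ and GNA11 differed by 0.28 and 0.24 (adjusted p = 0.131 and 0.172). ITPR1 and ORAI1, like the genes KNG1, F2RL2, ADORA2B, NT5E, F3, GNAQ and GNA11, are named after their values were seen.

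Of the Gs and cyclic AMP genes, the route of ADRB1, 1 of 20 rose and 1 fell. PDE8A, a phosphodiesterase that breaks down cyclic AMP, rose by 0.66 (SE 0.092, adjusted p = 0.0173, limma), with 9.17 and 9.33 in GFP-RhoGDI2 cells, against 8.51 and 8.67 in GFP cells. PRKAR2B, a regulatory subunit of protein kinase A, fell by 0.69 (SE 0.104, adjusted p = 0.0213), with 8.05 and 8.32 in GFP-RhoGDI2 cells, against 8.85 and 8.89 in GFP cells. The PRKAR2B call was lost with any 1 array left out (adjusted p of 0.0549 to 0.128, differences of -0.82 to -0.55), and that of PDE8A held only without the GFP B array (adjusted p of 0.0397 to 0.151). ADCY6, an adenylyl cyclase, differed by -0.26 (adjusted p = 0.143).

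Among genes of G12 and G13 signalling, onto which F2R can couple, 1 of 13 rose and 0 fell. RHOB, a small GTPase whose gene responds quickly to stimuli, read 7.06 and 7.25 in GFP-RhoGDI2 cells, against 6.65 and 6.55 in GFP cells. It rose by 0.56 (SE 0.109, adjusted p = 0.0400, limma), a call lost with any 1 array left out (adjusted p of 0.0865 to 0.204, differences of 0.47 to 0.65), with no filter (adjusted p = 0.0668) and with quantile normalization (adjusted p = 0.0517). RHOB was not tested with probe sets averaged. PPP1R12A, the targeting subunit of myosin phosphatase, differed by -0.36 (adjusted p = 0.0864, limma), and RHOC by 0.34 (adjusted p = 0.0987).

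Receptors for other mediators, the genes most like those described here, rose in 3 of 14 tested cases and fell in 0. Over all genes tested, 4.83% were called higher and 3.35% lower. FPR1, the formyl peptide receptor known from neutrophils, read 5.85 and 5.51 in GFP-RhoGDI2 cells, against 4.71 and 4.58 in GFP cells, and rose by 1.04 (SE 0.102, adjusted p = 0.00633, limma). Its GFP B value lay below the filter level. The FPR1 probe set is of the _s_at class, and the gene was not tested with probe sets averaged or without such probe sets. LPAR1, a receptor for lysophosphatidic acid, rose by 0.67 (adjusted p = 0.0259), and HRH1, the Gq-coupled histamine receptor, by 0.56 (adjusted p = 0.0294). The LPAR1 and HRH1 calls were lost with any 1 array left out (adjusted p of 0.0511 to 0.125 and 0.0883 to 0.191, differences of 0.57 to 0.77 and 0.47 to 0.65), and that of HRH1 also with no filter (adjusted p = 0.0521). With probe sets averaged, LPAR1 stood at 0.44 (adjusted p = 0.00643). Another 18 receptors of this list were below the filter level.

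**Figure D3:**
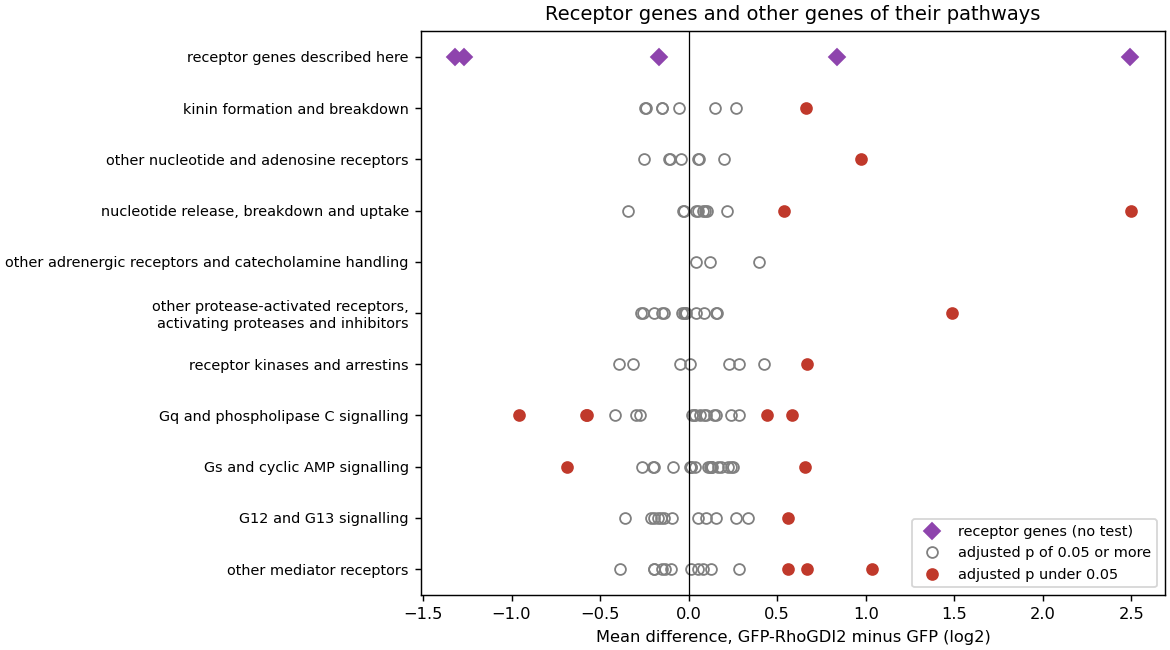
Mean GFP-RhoGDI2 minus GFP difference (x axis, log2) of the 5 receptor genes that passed the filter (purple diamonds, no test) and of the 117 tested genes of the 10 pathway lists (rows), filled red where the adjusted p was under 0.05 and open grey otherwise. The 13 genes that rose lie between 0.44 (ITPR1) and 2.50 (GJA1), and the 4 that fell reach -0.96 (ITPR2).

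The genes whose pattern over the 4 arrays lay nearest to BDKRB1, P2RY1 and ADRB1 were found by the root mean square distance between values centred on their own 4-array mean, among 12122 other genes tested. GJA1 was nearest to BDKRB1, at 0.031 on the log2 scale. CA8, a carbonic anhydrase-related protein, came next at 0.104 with a mean difference of 2.31. Its GFP values of 3.59 and 3.69 lay below the filter level, so CA8 passed the filter through the GFP-RhoGDI2 arrays alone. VGLL3, a transcription cofactor, was nearest to P2RY1 at 0.067, with a mean difference of -1.16. RGS2, a regulator of G-protein signalling that shortens Gq signals, came next at 0.088 with -1.19. The RGS2 value on the GFP-RhoGDI2 A array, 4.42, lay below the filter level. For ADRB1 the nearest were ARAP2, a GTPase-activating protein, at 0.021 with -1.34, and SLC7A2, a cationic amino acid transporter, at 0.084 with -1.19. With only 4 arrays, this distance is small for any gene with a like difference between the lines.

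**Figure D4:**
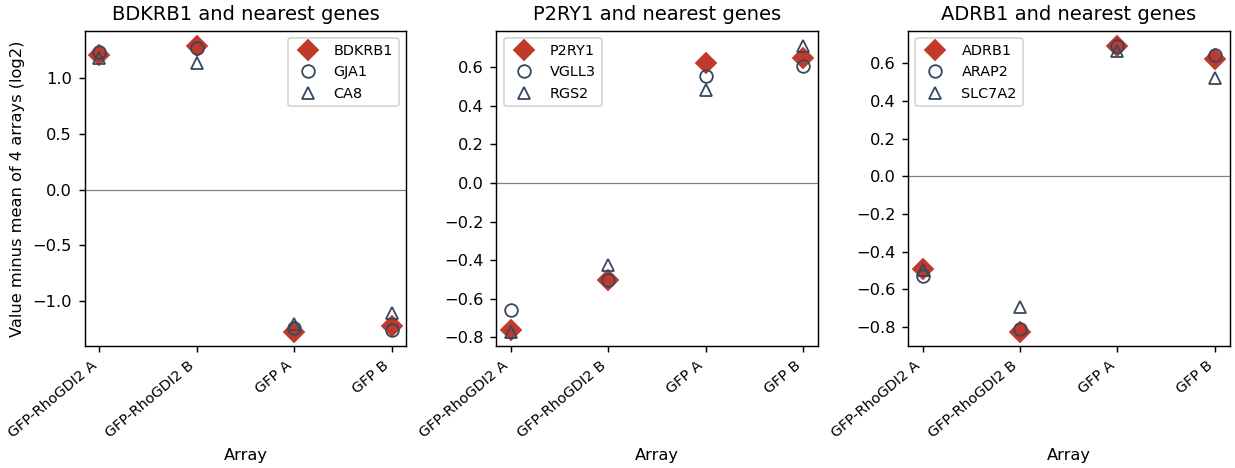
Log2 values minus their mean over the 4 arrays (y axis) on each array (x axis, GFP-RhoGDI2 arrays first) for BDKRB1, P2RY1 and ADRB1 (red diamonds) and the 2 genes nearest to each (open symbols). GJA1 lies close to BDKRB1 on every array (distance 0.031) and ARAP2 close to ADRB1 (0.021).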

How the data were processed

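Total RNA (6 µg, per the labels) of 4 cultures was measured on HG-U133 Plus 2.0 arrays. The authors deposited 1 log2 value per probe set and array, computed by RMA (named in the submitters' processing notes); the sources used here give neither its software and version nor the set of arrays it was run on. The small number of arrays limits the precision. No further normalization was applied.

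Of 54675 probe sets, 62 controls were left out; platform annotation named 1 gene for 41091 of the rest, several for 1801 (not used) and did not list 11721. Probe sets with a mean at or above 4.637 were tested (27307, 12123 genes) with limma 3.58.1 in R 4.3.3 (lmFit, eBayes), preparation as a block, Benjamini-Hochberg over all probe sets, with an adjusted p under 0.05 as the call. There were 1 residual and 4.71 prior degrees of freedom. The fit was tested on simulated data. The block follows the labels, which state that A and B mark shared preparation times; A minus B differences of the lines correlated at r = 0.264 over tested probe sets. A gene is its probe set with the highest mean.

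The receptors and lists were chosen with earlier results of these data known. Named genes are the receptors, ARHGDIB, in each list the 3 tested genes with the largest difference, and the 2 nearest patterns of receptors differing by at least 1; others are stated as such. Alternatives were no block, each array or preparation left out, other filters, an intensity trend, quantile normalization, probe set means, no _s_at or _x_at probe sets, and values raised to the filter level.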

Additional observations from a re-analysis of the deposited data

How the results depend on the processing

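The count of receptor genes higher by at least 1 was 1, BDKRB1, under all 10 alternatives tried, and its difference ran from 2.45 to 2.54 with 1 array left out. The count of those lower by at least 1, 2 in the main setting, was 0 with probe set means and 1 with values raised to the filter level, and 2 under the other 8. The other pathway genes called, 13 higher and 4 lower with the preparation block, were 10 and 4 without the replicate block. With 1 array left out they were 3 to 5 higher and 0 to 1 lower, in a fit without the block. With an intensity trend they were 22 higher and 11 lower; above the upper quartile of mean values 10 were lower, with probe set means 13 were lower, and without _s_at and _x_at probe sets 8 were higher. Over all genes tested, 585 higher and 406 lower became 400 and 241 without the block, 152 to 302 and 60 to 132 with 1 array left out, 902 and 974 above the upper quartile, 1405 and 1474 with the trend, and 1198 and 1116 with probe set means; 235 were lower with no filter. Without _s_at and _x_at probe sets, SLC6A2 stood at -0.061 and GRK5 at -0.10, against 0.12 and 0.67, each from another probe set. Apart from arrays and probe sets left out, the cause of these shifts was not tested. The preparation difference of the receptors gave 0 calls by limma under the 4 alternatives run, with 0 or 1 at an unadjusted p under 0.05, while the intensity trend called 190 genes between preparations. Leaving out 1 array of 4 leaves 1 group with a lone array, assumed to vary like the other group. Signal over background was not used, so low values limit what the ADRB1 difference and the levels of BDKRB2 and P2RY2 can show.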
